A study of Rattus norvegicus with 210 samples.

Results

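The comparison described here set the mediobasal hypothalamus (MBH) of weanling female rats whose dams had received the lowest dose of ketoconazole (KTZ) against that of vehicle controls. It held 5 libraries of the KTZ group, named K3, and 5 control libraries, all from postnatal day (PND) 22, and these 10 libraries were taken by group, age and region from the 210 RNA-seq libraries of the study. The study covered the MBH and the preoptic area (POA), 7 exposure groups and 3 ages. All rats were Sprague-Dawley females of an outbred stock and carried no transgene. K3 dams were gavaged daily with KTZ at 3 mg/kg bw/day in corn oil from gestational day 7 to birth and again after birth to PND22, and control dams received corn oil alone. The offspring were thus exposed through the dam, and neither the labels nor the study's methods say whether the 5 rats of a group came from different litters, so p-values measure the spread between these rats. The MBH blocks were cut by hand with the optic chiasm, the lateral hypothalamic sulci and the mammillary bodies as landmarks. In such bulk samples, fewer cells of a type and less RNA per cell cannot be told apart.

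The MBH holds the arcuate and ventromedial nuclei, which control feeding, growth and the release of gonadotropins, and its kisspeptin neurons drive the secretion of GnRH that starts puberty. Oxytocin and vasopressin are made by large neurons of the paraventricular and supraoptic nuclei, which send their axons through the MBH to the posterior pituitary. KTZ is an antifungal azole that blocks lanosterol demethylase (CYP51), a step of sterol synthesis, and several cytochrome P450 enzymes that make steroid hormones.

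Of 14815 genes tested, 5735 (38.7%) were called differentially expressed in K3 at an adjusted p-value under 0.05 (two-sided quasi-likelihood test of edgeR, Benjamini-Hochberg adjusted). Transcripts of 3087 genes (20.8%) were higher and of 2648 genes (17.9%) lower in K3. More than 2-fold differences were found for 792 of the genes called higher and 666 of those called lower, and the median log2 fold change over all genes was -0.01. Without control replicate 1 the count was 3409, and without control replicate 2 it was 3717. At an unadjusted p-value under 0.05, 7586 genes (51.2%) differed. Levels are given as CPM, the reads of a gene relative to all reads counted in its library. Fold changes are on the log2 scale and were taken after TMM scaling, a correction for the makeup of the libraries.

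The K3 libraries were not alike. Replicates 4 and 5 stood apart from K3 replicates 1 to 3 in the share of reads on ribosomal protein genes, which was 3.12% and 3.21% against 1.17% to 1.44%, while the control libraries had 0.978% to 1.04%. The other 33 MBH libraries of PND22 had between 0.973% and 2.57%. Reads on genes of the mitochondrial genome made up 10.9% and 9.07% in K3 replicates 4 and 5, 6.46% to 7.47% in the other K3 libraries and 6.80% to 7.38% in control. By the rat numbers in the labels, the POA libraries of these groups at PND22 came from the same rats, under the same replicate numbers. In the POA, K3 replicates 4 and 5 had ribosomal protein shares of 0.993% and 0.983%. These were close to the 0.938% to 0.972% of POA K3 replicates 1 to 3. The first principal component took up 64.8% of the variance between the 10 libraries, with scores of -43.4 to -32.7 in control, -4.54 to 16.7 in K3 replicates 1 to 3, and 79.5 and 89.5 in K3 replicates 4 and 5. No library of K3 lay among the controls on this axis. Depth did not separate the groups, as 18459642 to 22522907 reads were counted per control library and 19731315 to 24844687 per K3 library.

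**Figure D1:**
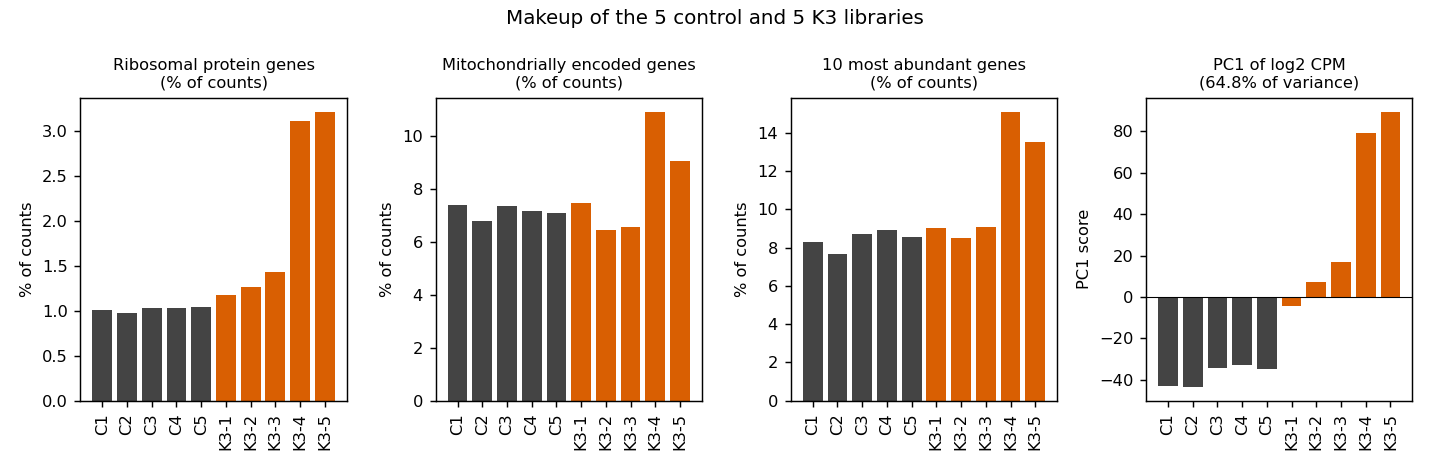
Makeup of the 5 control (grey) and 5 K3 (orange) libraries: bars give the percentage of counts on ribosomal protein genes, on mitochondrially encoded genes and on the 10 most abundant genes, and the score on the first principal component. K3 replicates 4 and 5 have ribosomal protein shares of 3.12% and 3.21%, above the 8 other libraries, which lie at or under 1.44%.

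Without K3 replicates 4 and 5 together, 5962 genes were called, 2893 higher and 3069 lower, and 4736 of them were among the 5735. Of the 221 called genes in the lists and rules used below, 198 were called without the pair, with the same sign, 149 were called in each of 10 fits that left out a single library, and 221 were called by DESeq2. Values without the pair are given where they ended or gave a call, turned a sign or moved the value of a called gene by more than 1.5 times. The calls of Cux2, Lrrc55, Cartpt, Six6, Cx3cr1, Otud4, Tet3, Cacna2d1 and Rxrb were made in 5 to 9 of the 10 fits.

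The transcript of the oxytocin gene Oxt (ENSRNOG00000021225) was far higher in K3. Its level was 9.31, 13.6, 7.66, 2.28 and 7.81 CPM in control replicates 1 to 5, and 94.5, 87.9, 124, 126 and 201 CPM in K3 replicates 1 to 5. Every K3 library lay above every control library. The log2 fold change was 4.15 (SE 0.42, adjusted p = 0.00016, edgeR).

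Avp (ENSRNOG00000021229), which encodes vasopressin and lies next to Oxt in the genome, moved the same way. Control replicates 1 to 5 held 25.5, 42.6, 26, 8.78 and 23.1 CPM, and K3 replicates 1 to 5 held 98, 102, 135, 140 and 251 CPM. The groups did not overlap, K3 replicate 5 was the highest and control replicate 4 the lowest for both genes. The log2 fold change of Avp was 2.72 (SE 0.40, adjusted p = 0.0012, edgeR). Of the 10 tested genes of the oxytocin and vasopressin system, these 2 were higher and 2 were lower, near the 20.8% and 17.9% of all genes. The lower ones were Pcsk1 and Pam, enzymes that process neuropeptide precursors, by -0.99 and -0.62 on the log2 scale (Pam without K3 replicates 4 and 5 -0.38).

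Other transcripts of paraventricular and supraoptic neurons were not called. Of the 7 tested genes of this list, Oxt and Avp alone were called, where 38.7% of all genes were called in either direction. Sim1 and Otp, transcription factors of these neurons, had log2 fold changes of -0.60 and -0.67 (adjusted p = 0.10 and 0.11), and Crh and Trh, releasing hormones of the same nuclei, had 0.57 and 0.25 (adjusted p = 0.12 and 0.32). Sim1 was at 12.6 to 15.9 CPM in control and at 10.6 to 12.9 CPM in K3 replicates 1 to 3, but at 3.62 and 4.61 CPM in K3 replicates 4 and 5.

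The promoters of Oxt and Avp are shown because these neighbouring genes moved together and because many nuclear receptors bind sites built from AGGTCA. They are the 250 bases before the transcription start, from RefSeq on the assembly GRCr8, written 5′ to 3′ on the strand of the gene, and capitals mark AGGTCA or its reverse complement TGACCT. The Oxt window is chr3:138235504-138235753 on the plus strand, and the Avp window is chr3:138248523-138248772 on the minus strand.
Oxt: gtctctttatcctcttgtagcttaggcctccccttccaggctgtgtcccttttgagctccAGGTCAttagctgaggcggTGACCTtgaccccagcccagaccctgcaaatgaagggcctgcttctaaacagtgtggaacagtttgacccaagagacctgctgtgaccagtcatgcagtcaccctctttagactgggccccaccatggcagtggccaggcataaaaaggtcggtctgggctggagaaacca
Avp: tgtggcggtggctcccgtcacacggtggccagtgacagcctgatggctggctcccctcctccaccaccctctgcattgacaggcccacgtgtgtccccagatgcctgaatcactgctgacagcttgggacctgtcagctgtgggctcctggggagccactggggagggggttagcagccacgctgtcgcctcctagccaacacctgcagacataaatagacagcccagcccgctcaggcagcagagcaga
The Oxt window held both orientations, starting 190 and 171 bases before the start of transcription, and the Avp window held none. Of 33469 rat promoters of this length, 4707 (14.1%) held the motif on either strand. Among the 12 leading genes higher in K3, described next, 10 had a promoter in the table and 2 of these held the motif, and among the 12 leading lower genes 7 had a promoter and 0 held it.

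The genes with the largest differences in K3 were named by a fixed rule that took the 12 highest and the 12 lowest fold changes among called genes with sufficient reads whose groups did not overlap. Over all genes tested, the CPM of 1491 (10.1%) lay above and of 3426 (23.1%) below all control libraries in every K3 library, and after TMM scaling these numbers were 2239 (15.1%) and 2476 (16.7%). The 12 leading higher genes had log2 fold changes of 3.57 to 7.69. All 12 were called with any single library left out, by DESeq2, and without K3 replicates 4 and 5, where their values were 2.97 to 7.77. The rule used this contrast, so the values are a description.

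Shox2, a homeobox factor of thalamic and midbrain neurons, had the largest fold change. Its level was 0, 0.0537, 0.0929, 0.217 and 0.0444 CPM in control replicates 1 to 5, a sum of 8 reads, and 23, 15.7, 14, 17.6 and 9.12 CPM in K3 replicates 1 to 5, a sum of 1705 reads (log2 fold change 7.69, SE 0.43, adjusted p = 2.6e-06, edgeR). Because control was near 0, this value depends on how few reads are treated in the fit. Prkcd, the protein kinase C delta of thalamic relay neurons, was at 15.4, 11.4, 14.4, 7.96 and 13 CPM in control and at 239, 257, 223, 185 and 162 CPM in K3 (4.25, SE 0.18, adjusted p = 3.2e-07). Ptpn3, a tyrosine phosphatase, was at 8.54, 8.38, 7.80, 8.99 and 8.39 CPM in control and at 187, 186, 159, 113 and 90.8 CPM in K3 (4.27, SE 0.18, adjusted p = 3.2e-07). For Ptpn3 and Prkcd, K3 replicates 4 and 5 were the lowest of the K3 libraries and were still far above control.

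Gabrd, the delta subunit of extrasynaptic GABA-A receptors, was at 1.59, 2.2, 1.86, 1.25 and 1.95 CPM in control and at 34, 38.9, 38, 57.5 and 60.4 CPM in K3 (log2 fold change 4.87, SE 0.27, adjusted p = 2.6e-06). Slc17a7, the vesicular glutamate transporter VGLUT1, was at 2.27, 1.83, 2.14, 2.17 and 0.799 CPM in control and at 29.1, 34.4, 33.7, 40 and 43.5 CPM in K3 (4.47, SE 0.27, adjusted p = 2.8e-06). Both differences were much larger than the spread within either group. Ramp3, a partner of peptide hormone receptors, had 6.39 to 8.11 CPM in control and 52.5, 57, 58.1, 110 and 110 CPM in K3 replicates 1 to 5, so the pair 4 and 5 had the highest levels.

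Vip, a neuropeptide of the suprachiasmatic clock, was at 0.676, 1.72, 4.09, 3.30 and 2.44 CPM in control and at 21.1, 30.9, 25.7, 54.9 and 59.8 CPM in K3 (log2 fold change 4.17, SE 0.49, adjusted p = 0.00036), and its value without K3 replicates 4 and 5 was 3.47. Thrsp, a nuclear protein that promotes lipogenesis and responds to thyroid hormone, was at 3.33, 0.913, 3.16, 4.01 and 3.42 CPM in control and at 21.6, 21.6, 38.5, 60.8 and 56.5 CPM in K3 (3.94, SE 0.45, adjusted p = 0.00033), and without the pair its value was 3.26. Ramp3 had 3.57 (SE 0.29, adjusted p = 3.6e-05), and 2.97 without the pair. The remaining higher genes were Mybpc1, a myosin-binding protein (4.94), Wnt9b, a secreted Wnt ligand (4.5), and Rab37, a small GTPase of vesicle transport (4.32), each with every K3 library above control.

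**Figure D2:**
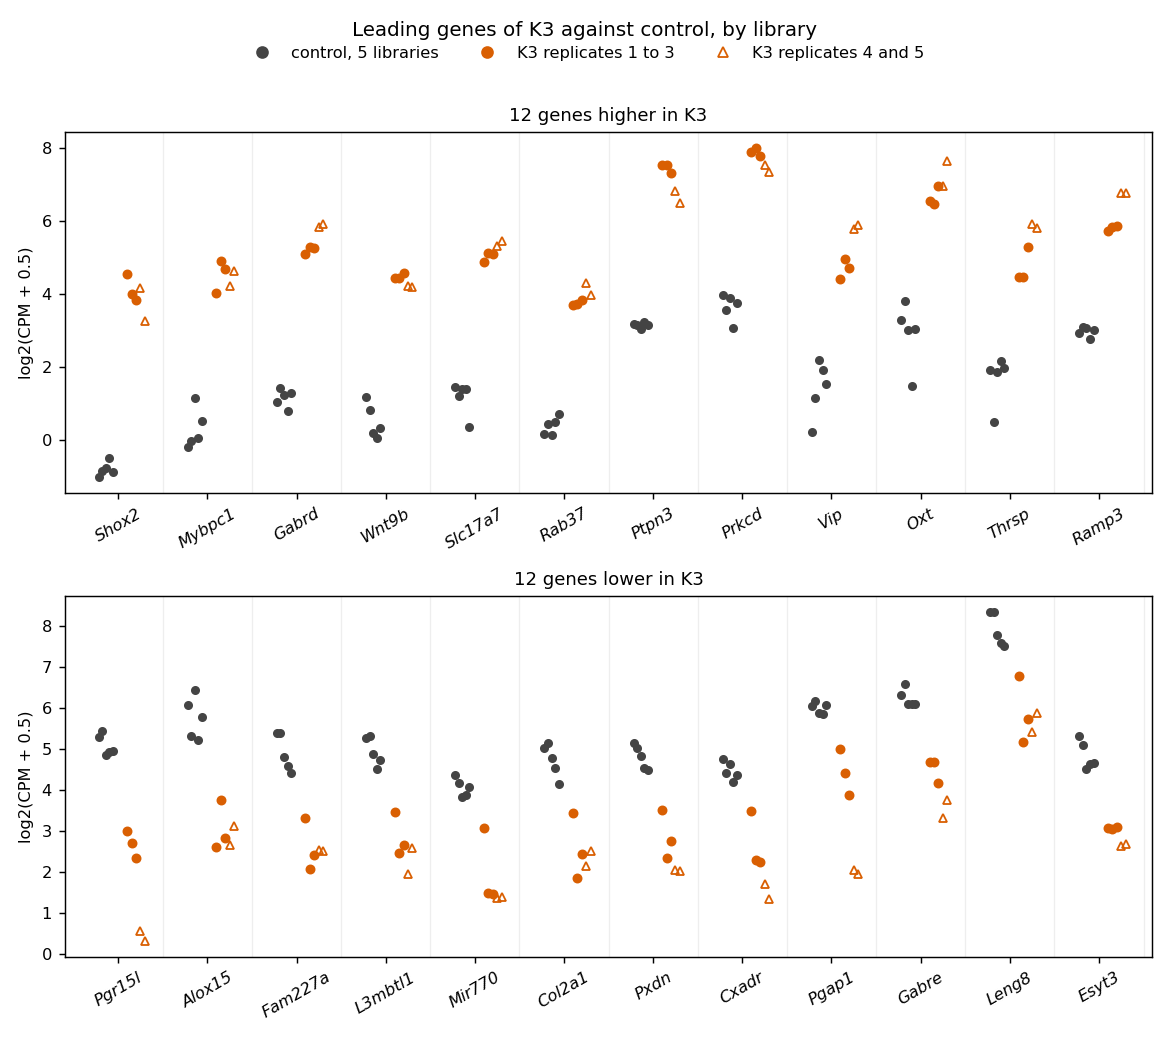
Levels of the 12 leading higher and 12 leading lower genes as log2(CPM + 0.5), 1 point per library, with control in grey, K3 replicates 1 to 3 as filled orange circles and K3 replicates 4 and 5 as open triangles. The groups do not overlap for any of these genes, as the rule required, and the triangles lie furthest from control for genes such as Pgr15l and Pgap1 but nearest to it among K3 for Ptpn3.

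The 12 leading lower genes had log2 fold changes of -2.98 to -1.88, smaller in size than those of the higher genes. They too were called with any single library left out, by DESeq2 and without the pair, where they had values of -2.66 to -1.46. Pgr15l was at 38.8, 42.9, 28.5, 29.9 and 30.6 CPM in control and at 7.54, 6.08, 4.55, 0.974 and 0.760 CPM in K3 (log2 fold change -2.98, SE 0.48, adjusted p = 0.0021). Alox15, a lipoxygenase that oxidises polyunsaturated fatty acids, was at 66.8, 39.5, 86, 36.5 and 54.2 CPM in control and at 5.62, 13, 6.59, 5.80 and 8.26 CPM in K3 (-2.69, SE 0.29, adjusted p = 0.00025). For Alox15 the pair of K3 replicates 4 and 5 lay within the range of the other K3 libraries, and for Pgr15l it lay below them.

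Gabre, the epsilon subunit of GABA-A receptors, which is largely a hypothalamic and brainstem subunit, was at 78.6, 95.5, 67.1, 67.7 and 67.6 CPM in control and at 25.1, 25.3, 17.5, 9.42 and 12.9 CPM in K3 (log2 fold change -1.93, SE 0.22, adjusted p = 0.00033). Pgap1, which remodels lipid anchors of membrane proteins, was at 57.1 to 71.1 CPM in control and at 31.2, 20.7, 14.2, 3.67 and 3.40 CPM in K3 (-2.02, SE 0.48, adjusted p = 0.012). L3mbtl1, a reader of methylated histones, was at 22.3 to 38.9 CPM in control and at 10.5, 4.99, 5.81, 3.39 and 5.47 CPM in K3 (-2.21, SE 0.25, adjusted p = 0.00033). Of these 3 genes Pgap1 spread most within K3, and its highest K3 library was below the lowest control.

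Col2a1, the collagen of cartilage, was at 17.2 to 35 CPM in control and at 10.4, 3.10, 4.94, 3.94 and 5.17 CPM in K3 (log2 fold change -2.13). Pxdn, a peroxidase that crosslinks collagen IV, had -2.12, and Cxadr, an adhesion protein of cell junctions, had -2.04. The others were Fam227a (-2.28), Mir770 (-2.15), Leng8 (-1.91) and Esyt3, a tether between the endoplasmic reticulum and the plasma membrane (-1.88). Mir770 is a microRNA gene, and reads of an mRNA library on it come from longer transcripts of its locus.

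Transcripts of thalamic neurons were higher in K3. Of the 10 genes of the thalamus list, all tested, 8 were higher and none was lower, against 20.8% and 17.9% of all genes. Like all lists here, it was chosen with earlier results of these data known. Prkcd, Ptpn3 and Ramp3 are also among the leading genes, so these shares are a description. Their summed level was 119 to 147 CPM in control and 858, 839, 725, 625 and 515 CPM in K3 replicates 1 to 5. Tcf7l2, the transcription factor that defines thalamic excitatory neurons, was at 21.9 to 25.2 CPM in control and at 126, 106, 99.1, 101 and 73.3 CPM in K3 (log2 fold change 2.26, SE 0.12, adjusted p = 2.6e-06), and Gbx2, an early thalamic factor, was at 0.0444 to 0.325 CPM in control and at 1.77 to 4.18 CPM in K3 (4.44, SE 0.47, adjusted p = 2e-04). All 8 calls held with any single library left out and without K3 replicates 4 and 5. Tnnt1 (1.19, adjusted p = 0.14) and Amotl1 (-0.76, adjusted p = 0.052) were not called, although Amotl1 was called lower without K3 replicates 4 and 5 (-0.38, adjusted p = 0.023).

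Transcripts of midbrain dopamine and serotonin neurons were also higher. Slc6a3, the dopamine transporter, was at 4.05, 4.14, 19.6, 14.1 and 5.73 CPM in control and at 63.3, 89.4, 160, 59.8 and 65.3 CPM in K3 (log2 fold change 3.33, SE 0.49, adjusted p = 0.0012). All 3 tested genes of the list were called higher, against 20.8% of all genes. However, Tph2, the serotonin-making enzyme, lost its call without K3 replicates 4 and 5 (1.10 against 0.49, adjusted p = 0.29). En1, a midbrain factor, had 1.11 CPM at most. The thalamus and midbrain lists moved with the exposure group in every library, and their part in the other differences was not tested.

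Other forebrain regions bordering the block did not move in this way. Of 7 tested cortex and hippocampus genes, 2 were higher (Slc17a7 and Cux2) and 1 was lower, and the cortical factors Emx1 and Tbr1 had sums of 5 and 59 reads over the K3 libraries against 1 and 25 over control. Of 8 striatum genes only Rgs9, a regulator of dopamine signaling, was called (-0.83), and of 4 tested habenula genes Chrna3, a nicotinic receptor subunit, was higher (1.18) and Lrrc55 lower (-0.74, without K3 replicates 4 and 5 -0.4). The summed levels of these 3 lists overlapped between the groups. Over all genes, 20.8% were called higher and 17.9% lower.

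Transcripts of the ventromedial nucleus were lower. All 4 tested genes were called lower, against 17.9% of all genes. None of the 4 overlapped between groups, where the CPM of 23.1% of all genes lay below control in every K3 library. Their summed level was 131 to 151 CPM in control and 58 to 91.4 CPM in K3. Nr5a1, the factor SF1 that defines this nucleus, was at 13.5, 15, 9.84, 7.80 and 12.2 CPM in control and at 5.57, 4.35, 3.73, 1.48 and 2.48 CPM in K3 (log2 fold change -1.59, SE 0.28, adjusted p = 0.0032). Fezf1 (-0.99), Sox14 (-1.33) and Adcyap1, which encodes the neuropeptide PACAP (-0.60), fell as well, and these calls held without the pair.

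The arcuate nucleus gave a mixed picture. Of 8 tested genes, the feeding peptide Cartpt was higher (0.62, without K3 replicates 4 and 5 0.30) and the transcription factors Tbx3 (-1.36) and Isl1 (-0.88) were lower, while Npy was listed at 0 in all 10 libraries, although arcuate neurons use it. Pomc, the precursor of the satiety peptide alpha-MSH, was at 27.3 to 55.4 CPM in control and at 32.6 to 55.6 CPM in K3 (log2 fold change 0.18, SE 0.24, adjusted p = 0.55), and without K3 replicates 4 and 5 its sign turned (-0.19, adjusted p = 0.44). Agrp, the opposing hunger peptide, was at 11.2 to 17.3 CPM in control and at 6.26, 5.03, 5.47, 10 and 12.4 CPM in K3 (-0.76, SE 0.28, adjusted p = 0.053), and it was called lower without the pair (-1.36, adjusted p = 9.3e-05). Pomc and Agrp were thus present in every library of both groups. Shares called over all genes were 20.8% higher and 17.9% lower.

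Caudal and lateral hypothalamic markers differed among themselves. In the mammillary list 2 of 7 tested genes were lower and none was higher, against 17.9% and 20.8% of all genes. The summed level was 116 to 230 CPM in control and 48.5 to 82.3 CPM in K3. Hdc, the enzyme that makes histamine, accounted for most of it, with 139, 90.9, 177, 115 and 112 CPM in control and 47.6, 47.3, 48.7, 30 and 36.2 CPM in K3 (log2 fold change -1.45, SE 0.17, adjusted p = 0.00037). Foxb1 fell by 0.79 on the log2 scale. Lmx1a ranged from 2.46 to 20.1 CPM within control and from 5.71 to 10.4 CPM in K3 (-0.25, adjusted p = 0.69), so control libraries themselves differed in this marker. The lateral hypothalamic peptides Hcrt (0.05, adjusted p = 0.84) and Pmch (0.54, adjusted p = 0.17) were not called, and both had negative values without K3 replicates 4 and 5 (-0.23 and -0.04, adjusted p = 0.23 and 0.87). Lhx9, a developmental factor, was higher (2.37).

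Of 5 tested suprachiasmatic genes, Vip and its receptor Vipr2 (1.19, SE 0.11, adjusted p = 7.4e-05) were higher, and the developmental factors Six6 (-0.64) and Six3 (-1.18) were lower, Six3 only with the pair included (without it -0.82, adjusted p = 0.075). Gpr50, an orphan receptor of tanycytes, was at 10.2 to 26.4 CPM in control and at 6.11, 6.68, 4.60, 2.18 and 1.93 CPM in K3 (log2 fold change -1.79, SE 0.34, adjusted p = 0.0048). It was the single called gene of 7 tested tanycyte and ependyma genes, and Rax, which defines tanycytes, had -1.21 (adjusted p = 0.06). Beside both lists, 20.8% of all genes were called higher and 17.9% lower.

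**Figure D3:**
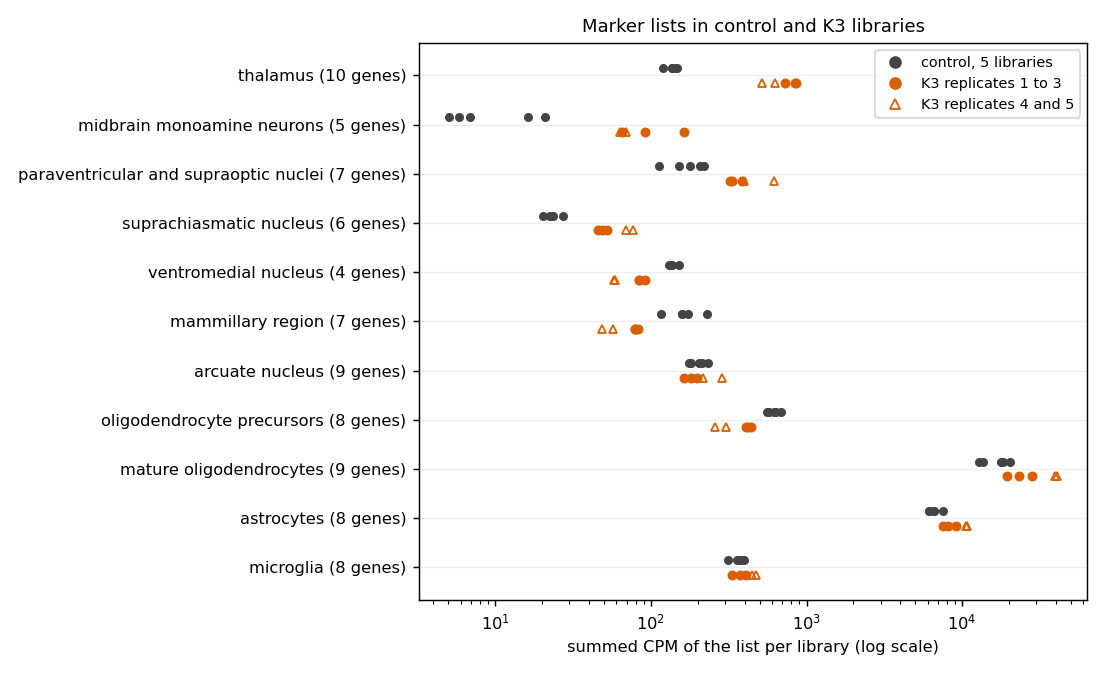
Summed CPM per library of the genes of 11 marker lists on a log scale, with control in grey, K3 replicates 1 to 3 as filled orange circles and K3 replicates 4 and 5 as open triangles. Thalamus, midbrain monoamine, paraventricular and supraoptic, and suprachiasmatic lists lie higher in all 5 K3 libraries. Ventromedial, mammillary and oligodendrocyte precursor lists lie lower, and the arcuate, mature oligodendrocyte, astrocyte and microglia lists overlap.

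Oligodendrocytes, the myelin-forming cells, showed opposite differences in their precursor and mature transcripts. Of 7 tested precursor genes 4 were lower and none was higher, against 17.9% and 20.8% of all genes. The summed level of the list was 554 to 681 CPM in control and 260 to 440 CPM in K3. Gpr17 (ENSRNOG00000025745), a receptor that marks committed precursors before they myelinate, was at 104, 102, 118, 97.5 and 97.1 CPM in control and at 39, 44.8, 35.2, 16.6 and 14.2 CPM in K3 (log2 fold change -1.66, SE 0.25, adjusted p = 0.0015). Enpp6 (-0.84), which marks newly forming oligodendrocytes, and Pdgfra (-0.75) and Cspg4 (-0.66), which mark dividing precursors, also fell. Without K3 replicates 4 and 5 Pdgfra had -0.48 and was still called.

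Of 9 tested mature oligodendrocyte genes 6 were higher and none was lower, against 20.8% and 17.9% of all genes. Mog, a protein of the myelin surface, was at 149, 135, 160, 181 and 176 CPM in control and at 213, 262, 328, 291 and 335 CPM in K3 (log2 fold change 1, SE 0.16, adjusted p = 0.0019). Mbp, the myelin basic protein, was at 4810, 5020, 6440, 7680 and 6700 CPM in control and at 7870, 9640, 12400, 23300 and 23300 CPM in K3 (1.52, SE 0.35, adjusted p = 0.0097), and its value without K3 replicates 4 and 5 was 0.77 (adjusted p = 0.0044). Opalin (0.76) and Ermn (0.81) rose, Mobp rose only with the pair included (0.88, without it 0.38, adjusted p = 0.054), and Mag was not called (-0.17, adjusted p = 0.36). The myelin genes thus differed among themselves, with Mag at 453 to 610 CPM in control and at 283 to 551 CPM in K3.

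Several glial calls rested on K3 replicates 4 and 5, the libraries with high ribosomal protein shares. Of 8 tested astrocyte genes 5 were higher and none was lower, against 20.8% and 17.9% of all genes. Gfap, Agt and Aldh1l1 were not called without the pair (0.63, 0.21 and 0.27, adjusted p = 0.064, 0.064 and 0.088). This left S100b (1.5, without the pair 0.97) and Aldoc (0.91, without it 0.60). Aqp4 (-0.18) and Slc1a3 (-0.10), defining astrocyte transcripts, were not called (adjusted p = 0.37 and 0.38), but Slc1a3 was called lower without the pair (-0.21, adjusted p = 0.012). Of 8 tested microglia genes 4 were higher and Cx3cr1 was lower (-0.47), against 20.8% higher and 17.9% lower of all genes. Aif1 was at 12.8 to 16.5 CPM in control, at 15.5, 17.4 and 19.6 CPM in K3 replicates 1 to 3 and at 51.3 and 46.4 CPM in K3 replicates 4 and 5, and neither it nor C1qb was called without the pair (0.3 and 0.17, adjusted p = 0.054 and 0.23). C1qa had 0.96 with the pair and 0.53 without it (adjusted p = 0.0087).

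Vascular transcripts were mostly not called, where 38.7% of all genes were called in either direction. Among 9 tested mural and meningeal genes, the pericyte markers Rgs5 (log2 fold change -1.02, SE 0.11, adjusted p = 0.00027) and Pdgfrb (-0.96, SE 0.12, adjusted p = 0.00051) were lower with no overlap between groups, and among 7 endothelial genes Kdr, a VEGF receptor, was lower (-0.77). None of the 4 tested red blood cell genes was called, and their values are uncertain because the hemoglobin genes are near-identical copies. In the choroid plexus list, Ttr was higher (2.97) with 8.09 CPM at most, a call lost without control replicate 1 (adjusted p = 0.054) or 2 (adjusted p = 0.051), and Kl was lower (-1.13, without the pair -0.74). The pituitary hormones Prl and Gh1 had at most 7 reads in any library, Tshb, the beta chain of thyrotropin, was higher (2.03, SE 0.35, adjusted p = 0.0029; 6.18 to 24 CPM in control and 28.2 to 68.4 CPM in K3), and Lhb was lower (-0.66).

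Cholesterol synthesis, the pathway in which KTZ has its fungal target, had more genes called higher than lower. Of 22 tested genes 11 were higher, 1 was lower and 10 were not called, where 20.8% of all genes were higher and 17.9% lower. The median log2 fold change was 0.40. The summed level of the list was 2800 to 3230 CPM in control. In K3 replicates 1 to 5 it was 3390, 3530, 3620, 2720 and 2880 CPM, so the groups overlapped. Cyp51 (ENSRNOG00000007234), the lanosterol demethylase itself, was at 220, 233, 274, 279 and 274 CPM in control and at 311, 357, 378, 330 and 351 CPM in K3, with no overlap (log2 fold change 0.59, SE 0.11, adjusted p = 0.0036). Msmo1, a sterol oxidase of the steps after CYP51, was at 113 to 140 CPM in control and at 176, 198, 208, 195 and 199 CPM in K3 (0.75, SE 0.11, adjusted p = 0.00097). In CPM, K3 replicates 4 and 5 lay within the range of the other K3 libraries for both genes. After TMM scaling Cyp51 was at 385 and 397 CPM in the pair, above the 308 to 380 CPM of K3 replicates 1 to 3. Without the pair its log2 fold change was 0.52 (adjusted p = 0.0019, edgeR).

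Early steps of the route were among the genes called higher, namely the mevalonate kinases Mvk (0.71) and Pmvk (0.88). Srebf2, the factor that drives this pathway, was at 184 to 200 CPM in control, at 195 to 213 CPM in K3 replicates 1 to 3 and at 105 and 119 CPM in K3 replicates 4 and 5 (-0.08, adjusted p = 0.69), so it was near control in 3 K3 libraries and below it in the other 2. Without this pair its value was 0.14 (adjusted p = 0.057). Of the 12 calls, only that of Idi1 was lost without the pair (0.25, adjusted p = 0.057).

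Genes of steroid synthesis were called less evenly. Of 15 tested genes 5 were higher and none was lower, against 20.8% and 17.9% of all genes. Srd5a1, the 5-alpha reductase that makes dihydrotestosterone and neurosteroids, was at 16.9, 16.2, 22.8, 24.7 and 20.2 CPM in control and at 29.6, 32.1, 37, 26.9 and 32.8 CPM in K3 (log2 fold change 0.81, SE 0.14, adjusted p = 0.0032). Hsd17b10, a mitochondrial dehydrogenase of steroids and fatty acids, had 1.17 with and 0.49 without K3 replicates 4 and 5, and Fdxr, the reductase that supplies electrons to mitochondrial P450 enzymes, had 0.87. Fdx1 lost its call without the pair (0.83 against 0.20, adjusted p = 0.36), as did Hsd17b12 (0.17, adjusted p = 0.056). Cyp19a1, the aromatase, was at 1.19 to 1.98 CPM in control and 0.629 to 2.37 CPM in K3 (-0.13, adjusted p = 0.81), and was called lower without the pair (-0.96, adjusted p = 0.016). Cyp11a1, which starts steroid synthesis, had 0.963 CPM at most.

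Of 12 steroid receptor genes 3 were higher and 3 were lower, against 20.8% and 17.9% of all genes. Esr1 (ENSRNOG00000019358), the estrogen receptor alpha, was at 20, 17.9, 16, 15.3 and 16.1 CPM in control and at 10.3, 7.73, 5.76, 3.76 and 3.40 CPM in K3. Every K3 library was below every control (log2 fold change -1.33, SE 0.24, adjusted p = 0.0035), and without K3 replicates 4 and 5 the value was -1.03. Esrra, an orphan receptor that controls mitochondrial genes, was at 16.7 to 23.5 CPM in control and at 28.8, 29.6, 33.5, 34.2 and 47.5 CPM in K3 (0.94, SE 0.18, adjusted p = 0.005). Pgr, the progesterone receptor (-0.44, adjusted p = 0.29), and Esr2 (-0.17, adjusted p = 0.62) were not called, and the call of Gper1 was lost without the pair (-0.50, adjusted p = 0.07).

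Of 31 tested genes that control puberty and GnRH secretion 13 were lower and 3 were higher, against 17.9% lower and 20.8% higher of all genes, with a median log2 fold change of -0.44. Of these 16 calls 11 were made in every fit that left out a single library, and those of Dlk1, Flrt3, Mkrn3, Otud4 and Wdr11 were lost in some of them. Flrt3 had -0.48, and -0.23 without K3 replicates 4 and 5. Kiss1, which encodes kisspeptin, was at 2.61, 2.74, 1.30, 1.25 and 1.91 CPM in control and at 1.23, 1.57, 1.55, 2.23 and 3.5 CPM in K3. The groups overlapped (0.23, SE 0.35, adjusted p = 0.62), and the sign turned without K3 replicate 5 (-0.08, adjusted p = 0.85) and without K3 replicates 4 and 5 together (-0.35, adjusted p = 0.37). Its partner Tac3, or neurokinin B, was not called (0.55, adjusted p = 0.11), whereas Pdyn, which encodes the dynorphin that restrains these neurons, fell (-0.67, SE 0.12, adjusted p = 0.0035), with 158, 199, 138, 138 and 136 CPM in control and 96.1, 96.1, 95.5, 65 and 82.1 CPM in K3, and so did its receptor Oprk1 (-0.91, without the pair -0.59).

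Mkrn3, an imprinted brake on puberty, was at 3.48, 3.38, 3.62, 3.30 and 2.31 CPM in control and at 1.33, 1.37, 1.6, 1.48 and 2.58 CPM in K3. The groups overlapped through control replicate 5 and K3 replicate 5 (log2 fold change -0.77, SE 0.24, adjusted p = 0.028), and the call held without control replicate 5 (adjusted p = 0.036), K3 replicate 1 (0.047) or K3 replicate 5 (0.0064) but not without any other single library (adjusted p = 0.054 to 0.069). Without K3 replicates 4 and 5 its value was -1.09 (adjusted p = 0.0022). Dlk1, another imprinted gene of puberty timing, had -0.60 (adjusted p = 0.048), which was -0.47 without control replicate 2 and -0.44 without K3 replicate 4, and was not called without the pair (-0.33, adjusted p = 0.054). Otud4, a deubiquitinase linked to inherited GnRH deficiency, had -1.21 (without the pair -0.75).

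Igsf10, linked to the migration of GnRH neurons, was at 29.7, 27, 29, 19.1 and 26 CPM in control and at 15.8, 13.1, 9.78, 4.78 and 5.68 CPM in K3 (log2 fold change -1.28, SE 0.26, adjusted p = 0.0064). Sema3a, a guidance cue for GnRH axons, was at 6.44 to 8.78 CPM in control and at 3.75, 3.98, 3.63, 1.11 and 1.32 CPM in K3 (-1.41, SE 0.30, adjusted p = 0.0071). Nkx2-1, a factor of the ventral hypothalamus, was at 23.9 to 29.9 CPM in control and at 12.2, 11.1, 12.9, 5.52 and 7.80 CPM in K3 (-1.28, SE 0.17, adjusted p = 0.00085). All K3 libraries were below control for these 3 genes, and the pair was lowest.

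The 3 puberty genes called higher were Nsmf, Sema7a and Dusp6. Nsmf, which carries signals from synapse to nucleus and is linked to the migration of GnRH neurons, was at 150, 144, 139, 140 and 130 CPM in control and at 351, 342, 380, 872 and 645 CPM in K3 (log2 fold change 2.08, SE 0.30, adjusted p = 0.001), and without the pair it had 1.42. Sema7a, another axon guidance protein, had 1.25 (SE 0.13, adjusted p = 0.00021). The symbol Gnrh1 stood on more than 1 row of the table and was not used.

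Transcripts of DNA methylation enzymes and polycomb proteins, which silence genes through marks on DNA and histones, were mostly lower. Of 23 tested genes 15 were lower and 2 were higher, against 17.9% and 20.8% of all genes, with a median log2 fold change of -0.59. Dnmt3a (ENSRNOG00000026649), a de novo DNA methyltransferase, was at 43.2, 47, 40.2, 36.5 and 41.2 CPM in control and at 22.3, 17.3, 15.7, 4.73 and 3.34 CPM in K3 (-1.6, SE 0.40, adjusted p = 0.013). All K3 libraries were below control and the pair stood far below the rest, and without it the value was -1.10 (adjusted p = 4.8e-05).

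The enzymes that oxidise methylated cytosine moved the same way as the methyltransferases. Tet1 was at 7.09, 8.86, 9.15, 7.64 and 6.48 CPM in control and at 3.65, 2.82, 2.18, 1.35 and 0.608 CPM in K3 (log2 fold change -1.75, SE 0.33, adjusted p = 0.0042). Tet3 had -1.36, which became -0.84 without K3 replicates 4 and 5 (adjusted p = 0.0011), and Dnmt3b had -1.37 with 1.88 CPM at most. Cbx7, a polycomb subunit that reads methylated histone H3, rose instead, with 51.4, 47, 45.6, 46.6 and 49.1 CPM in control and 68, 66.1, 62.4, 51.6 and 54.8 CPM in K3 (0.49, SE 0.08, adjusted p = 0.0018). K3 replicate 4 was just above the highest control in CPM, and after TMM scaling it was at 60.1 CPM against at most 47.7 CPM in control. The calls of Cbx2 and of Eed, the other gene called higher, were lost without the pair (-0.64 and 0.2, adjusted p = 0.07 and 0.091).

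GABA receptor subunits, which form the inhibitory chloride channels, changed in both directions. Of 22 tested genes of GABA signaling 3 were higher and 10 were lower, against 20.8% and 17.9% of all genes. Beside Gabrd, Gabra4, the alpha subunit that pairs with delta in thalamic neurons, was at 45.9, 43.1, 50.7, 51.5 and 50.9 CPM in control and at 141, 130, 116, 158 and 103 CPM in K3 (log2 fold change 1.58, SE 0.13, adjusted p = 4.8e-05). Gabrq, the theta subunit, which is found together with epsilon in hypothalamic neurons, was at 37.2, 40.3, 33, 27.4 and 31.6 CPM in control and at 17.1, 15, 9.15, 2.83 and 2.69 CPM in K3 (-1.74, SE 0.43, adjusted p = 0.012). Gabra2 (-1.38) fell too. Gabrd and Gabra4 were higher and Gabre and Gabrq lower in the same libraries in which the thalamus list was higher, at 515 to 858 CPM against 119 to 147 CPM, and its part in these differences was not tested.

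Of 30 glutamate signaling genes 5 were higher, a smaller share than the 20.8% of all genes, and 9 were lower, against 17.9% of all genes. Grid2ip, a scaffold of delta glutamate receptors, had a log2 fold change of 2.78 (SE 0.24, adjusted p = 4.8e-05), with 1.02 to 2.17 CPM in control and 7.70 to 12 CPM in K3, and the metabotropic receptors Grm3 (1.21) and Grm4 (0.90) were higher. Gria2, the AMPA receptor subunit that limits calcium entry, was at 431, 417, 368, 414 and 391 CPM in control and at 270, 231, 190, 102 and 90.3 CPM in K3 (-1.07, SE 0.24, adjusted p = 0.0088). Slc17a8, the transporter VGLUT3, fell by 1.35 and Neto1, an auxiliary subunit of kainate receptors, by 1.32 on the log2 scale. Slc17a7 (VGLUT1) and Slc17a8 (VGLUT3) therefore moved in opposite directions.

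Of 22 voltage-gated calcium channel genes 8 were lower and 3 were higher, against 17.9% and 20.8% of all genes, led by Cacna2d1 (log2 fold change -1.43), an auxiliary subunit that went from 104 to 123 CPM in control to 67.3, 60.8 and 47.6 CPM in K3 replicates 1 to 3 and 13.6 and 9.22 CPM in the pair, and had -0.91 without it. Of 27 tested potassium channel genes 7 were higher, which is near the 20.8% of all genes, and 2 were lower, led by Kcnab3 (1.47) and by Kcnc2 (1.32, SE 0.15, adjusted p = 0.00033), a fast delayed rectifier that was at 58.5 to 72.3 CPM in control and at 194, 179, 154, 124 and 95.2 CPM in K3. Among 22 genes of cAMP and CREB signaling 8 were lower and 3 were higher, the same counts as for the calcium channels. Prkacb, a catalytic subunit of protein kinase A, fell by 1.22 on the log2 scale, and Crem, a cAMP-inducible factor, rose (0.89, without the pair 0.45).

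**Figure D4:**
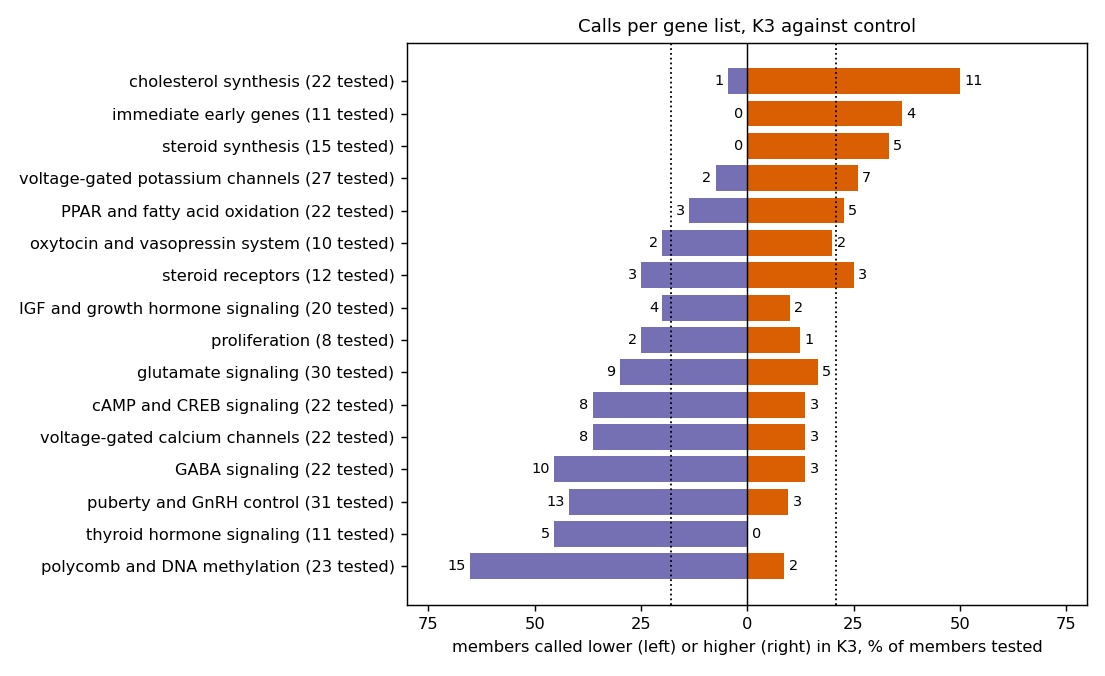
Percentage of tested members called higher (orange, right) or lower (purple, left) in K3 for each pathway or response list, with the number of genes at each bar and dotted lines at the shares over all genes tested, 20.8% higher and 17.9% lower. The polycomb and DNA methylation list has the most calls to the left, with 15 of 23 genes, and cholesterol synthesis has 11 of 22 to the right.

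All 5 calls among 11 tested thyroid hormone genes were lower, against 17.9% of all genes, led by Tshr, the thyrotropin receptor, which was at 8.45 to 12.7 CPM in control and at 6.06, 5.23, 6.05, 2.55 and 2.99 CPM in K3 (log2 fold change -1.07, SE 0.22, adjusted p = 0.0057). Of 20 genes of IGF and growth hormone signaling 4 were lower, with the growth hormone receptor Ghr first (-0.92), and 2 were higher, Igfbp5 (0.60) and Igfbp6, which lost its call without K3 replicates 4 and 5 (0.85, adjusted p = 0.11). The share of IGF genes called lower was near the 17.9% of all genes. Of 22 tested genes of PPAR signaling and fatty acid oxidation 5 were higher, among them the dehydrogenase Acadl (1.02, without the pair 0.60), and 3 were lower, the retinoid X receptors Rxra (-0.57), Rxrb (-0.34) and Rxrg (-0.54). The share of PPAR genes called higher was near the 20.8% of all genes. Pparg had 19 reads over control and 43 over K3 and was not tested.

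Of 11 immediate early genes, which respond to neuronal activity, 4 were higher and none was lower, against 20.8% and 17.9% of all genes. Dusp1, a phosphatase that ends MAP kinase signals, was at 13.3, 14.9, 15.6, 20.7 and 19.3 CPM in control and at 42.5, 37.6, 50.4, 33.4 and 34.3 CPM in K3 (log2 fold change 1.39, SE 0.15, adjusted p = 0.00024). Fos, the classical member, was at 8.36 to 21.5 CPM in control and at 32.6, 26.6, 38.8, 11.9 and 13.4 CPM in K3 (0.88, SE 0.34, adjusted p = 0.06), and was called higher without the pair (1.23, adjusted p = 0.0034). Fos was above all controls in K3 replicates 1 to 3 and among them in replicates 4 and 5. Of 8 proliferation genes Cenpf (-1.31) and Aurkb (-1.38) were lower and Birc5 was higher (0.76), a call lost without the pair (0.68, adjusted p = 0.11). The shares over all genes were 17.9% lower and 20.8% higher.

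Npw, the neuropeptide W precursor, was low in control and almost lost in K3. Control replicates 1 to 5 held 43, 78, 58, 57 and 55 reads, or 2.08 to 4.19 CPM, and K3 replicates 1 to 5 held 2, 3, 1, 1 and 5 reads (log2 fold change -4.46, SE 0.39, adjusted p = 5.6e-05). The groups did not overlap, but the size of the fold change rests on 12 reads in K3.

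The spread between libraries was larger in K3 than in control. The SD of log2(CPM + 0.5) over the 5 libraries was larger in K3 for 12052 of 14815 genes (81.3%), with medians of 0.323 in K3 and 0.136 in control. The root mean square log2 difference between libraries had a median of 0.407 within control, 0.733 within K3 and 0.676 between the groups. The high K3 median reflected pairs across replicates 1 to 3 and 4 to 5, at 0.699 to 0.909. Pairs among K3 replicates 1 to 3 had 0.369 to 0.389 and the pair 4 and 5 had 0.416, where control pairs had 0.338 to 0.468. K3 replicates 1 to 3 differed from control libraries by 0.488 to 0.701. The K3 libraries formed the sets 1 to 3 and 4 to 5 on the first principal component, as given above.

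Among the 8 expressed genes with the largest SD in K3, Tnr, a matrix protein of perineuronal nets, was at 142, 137, 141, 137 and 141 CPM in control and at 90.4, 68.9, 55.6, 12.5 and 10.2 CPM in K3 (log2 fold change -1.45, SE 0.47, adjusted p = 0.033). Sv2c, a synaptic vesicle protein, was at 35.9 to 44.9 CPM in control and at 22.9, 20.6, 19.6, 3.25 and 2.64 CPM in K3 (-1.45, adjusted p = 0.036). Without the pair Tnr had -0.89 and Sv2c -0.87, and their calls held in 4 of the 10 fits that each left out 1 library. Slc7a14 (-1.75, adjusted p = 0.019) showed the same order, as did Arfgef3 (-1.12, adjusted p = 0.11) and Lmbrd2 (-1.20, adjusted p = 0.072), which were not called but were lower without the pair (-0.52 and -0.63, adjusted p = 0.018 and 0.0045).

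The other 3 of these 8 genes spread in a different way. Rps9, a ribosomal protein gene, was at 23.2 to 33.4 CPM in control and at 26.5, 31, 1.02, 63.1 and 59.6 CPM in K3 (log2 fold change 0.56, SE 0.66, adjusted p = 0.51, without the pair -0.47, adjusted p = 0.54). Among the K3 and control libraries, K3 replicate 3 alone was nearly without it. The lowest library of the 6 mg/kg bw/day group was also at 1.02 CPM, where the median of that group was 29.6 CPM. Ephx2, the soluble epoxide hydrolase, was at 15.3, 23.1, 1.81, 27.8 and 1.33 CPM in control and at 2.12, 15.5, 22.4, 35.3 and 31 CPM in K3 (0.82, SE 0.83, adjusted p = 0.44), and low and high libraries occurred in both groups. Grifin, related to galectins of the lens, was at 2.65 to 6.22 CPM in control and at 14.7, 2.82, 30.6, 14.8 and 54.9 CPM in K3 (2.65, SE 0.63, adjusted p = 0.011), with K3 replicate 2 within the controls and a value of 1.96 without the pair (adjusted p = 0.012).

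The next doses, K6 and K12, with 6 and 12 mg/kg bw/day and 5 libraries each, were set against K3 directly. No gene of 14672 was called in K3 against K6 (0%) and none of 14700 in K3 against K12 (0%) with edgeR, although 1659 (11.3%) and 2557 (17.4%) had an unadjusted p-value under 0.05, and DESeq2 called 15 and 17 genes. A p-value that misses the threshold does not show that the doses had equal levels. Oxt had a log2 difference of 0.69 (SE 0.23, adjusted p = 0.42) in K3 against K6 and of 1.25 (adjusted p = 0.29) against K12, with 87.9 to 201 CPM in K3, 69.6 to 92.1 CPM in K6 and 14.6 to 86.6 CPM in K12. The lowest K3 library was thus above every K12 library for Oxt, and for Avp the ranges were 98 to 251, 56.9 to 120 and 35.9 to 95.1 CPM.

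For Dnmt3a, Gpr17 and Esr1 the lowest libraries of the 3 doses were K3 replicates 4 and 5, and K3 replicate 3 was also below every K6 and K12 library for Dnmt3a (15.7 CPM) and Esr1 (5.76 CPM). Dnmt3a was at 3.34 to 22.3 CPM in K3, at 16.5 to 23 CPM in K6 and at 19.4 to 26.7 CPM in K12 (K3 against K6 -0.59, SE 0.40, adjusted p = 0.45). Gpr17 was at 14.2 to 44.8, 32.8 to 43.5 and 36.7 to 48.2 CPM, and Esr1 at 3.40 to 10.3, 6.28 to 13.8 and 6.40 to 10 CPM. Thalamic transcripts, by contrast, spread more in the higher doses, as Prkcd was at 162 to 257 CPM in K3, at 88.6 to 489 CPM in K6 and at 48.3 to 460 CPM in K12. Cyp51 was at 311 to 378, 298 to 349 and 292 to 343 CPM.

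In the POA of the same rats, 285 of 14335 genes (1.99%) were called in K3 against control, 99 higher (0.691%) and 186 lower (1.3%). This count moved with single libraries, from 42 without K3 replicate 5 to 622 without K3 replicate 3, and it was also below 285 by more than 1.5 times without K3 replicates 1 (44), 2 (47) or 4 (72) and without control replicates 3 (50) or 5 (115). One POA control library, replicate 4, had Nr5a1 at 7.78 CPM, where the other 4 had at most 0.0789 CPM, and Oxt at 8.33 CPM against 70.5 to 210 CPM, and without it 279 genes were called. The difference between the regions was not tested.

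None of the leading genes and of the 8 genes with the largest spread in K3 was called in the POA, where Mybpc1 was not tested. Oxt was at 8.33 to 210 CPM in POA control and at 112 to 234 CPM in POA K3 (log2 fold change 0.46, adjusted p = 0.69). Gabrd was at 0.555 to 1.78 and 1.16 to 2.24 CPM (0.33, adjusted p = 0.60), and Prkcd at 13 to 30.4 and 13.7 to 23.3 CPM (-0.24, adjusted p = 0.58). Dnmt3a was at 43.7 to 57.7 and 41.1 to 45.2 CPM (-0.17, adjusted p = 0.24), Esr1 at 13 to 35.8 and 30.7 to 36.6 CPM (0.34, adjusted p = 0.36), and Cyp51 at 203 to 358 and 226 to 270 CPM (-0.18, adjusted p = 0.47).

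**Figure D5:**
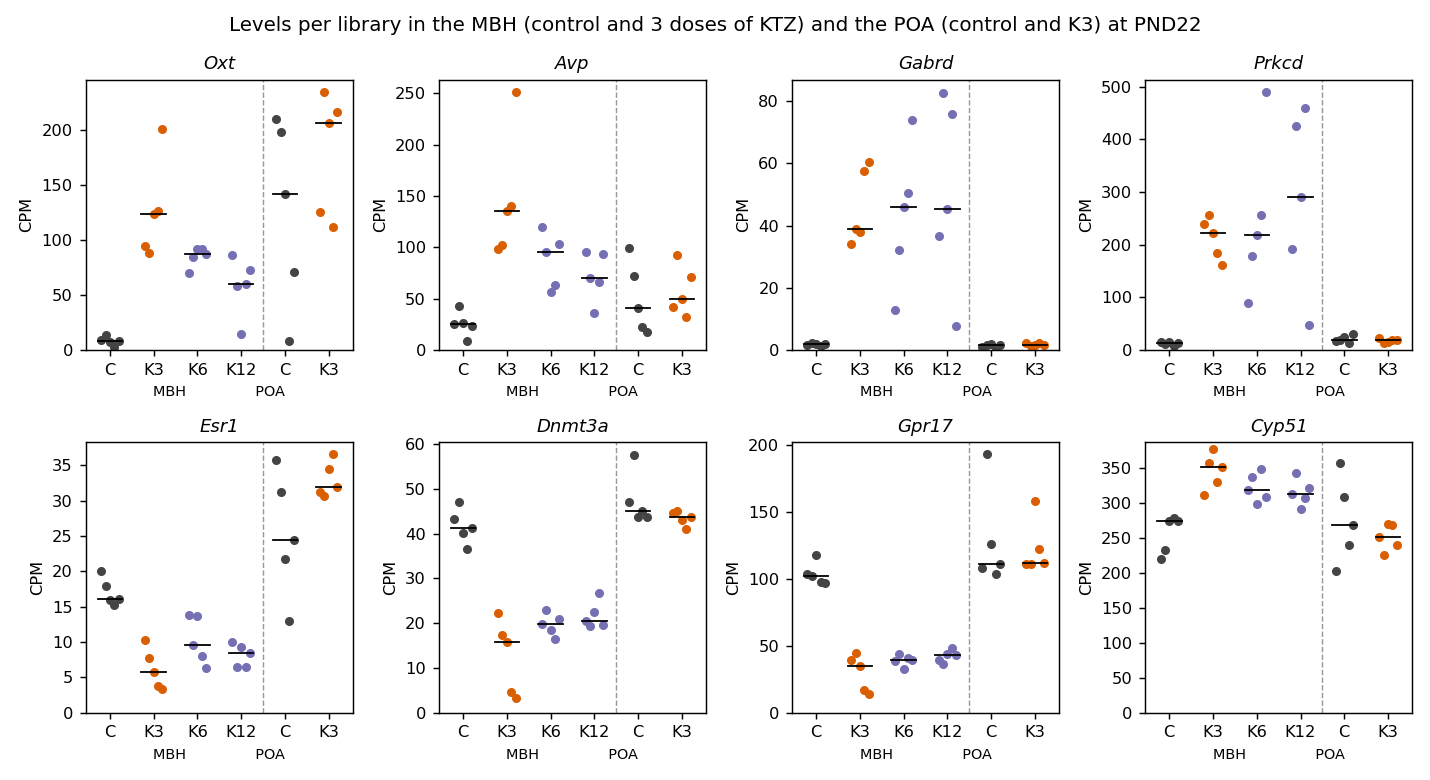
CPM per library (points) and median (line) of 8 genes in the MBH of control, K3, K6 and K12 and in the POA of control and K3 at PND22, with axes from 0. In the MBH the 5 K3 libraries lie apart from control for all 8 genes, as Oxt shows with 87.9 to 201 against 2.28 to 13.6 CPM, and in the POA the groups overlap for all 8.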

How the data were processed

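Libraries of polyadenylated RNA were made by the authors with a stranded kit and sequenced as read pairs, converted with bcl2fastq 2.20 (per the submitters' processing notes), aligned with STAR to Rnor_6.0 and counted on Ensembl genes with featureCounts. The authors deposited raw counts, whole numbers of reads per gene and library without normalization. Whether counting used the strand, and how reads with several places were treated, is not given in the sources used here, so genes with near-identical copies, overlapping genes and antisense genes are uncertain. Rows were named by the symbols in the table, and all columns were mapped to samples by their labels. Rnor_6.0 coordinates were not used here.

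The 5 K3 and 5 control libraries of the MBH at PND22 alone entered the fit, without covariates. Genes were kept with filterByExpr at a minimum count of 10, libraries were scaled by TMM, and edgeR 4.0.16 (R 4.3.3) gave two-sided quasi-likelihood p-values, adjusted over all genes tested and called under 0.05. Standard errors were derived from the fold change and its F statistic (absolute log2 value over the root of F). K3 was compared in the same way with K6, with K12 and, in the POA, with control. A count of 0 allows up to 3 reads, and such limits cover counting error only. On simulated counts with 200 genes changed 2-fold, 64.0% were recovered for K3 against control, with 7 false calls. The simulation drew libraries independently, with the same dispersion in both groups and far fewer changed genes than were called here. It left out the larger spread within K3 and the split of its libraries, so its rates do not give the error rates of these data.

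Named genes were the 12 largest and 12 smallest fold changes among called genes with a regular symbol, a log2 CPM that averaged 3 or more, and no overlap of CPM between groups, up to 4 called genes per direction and the defining genes of each list, the 8 genes with the largest SD in K3, and genes the study discusses. Pdyn, Oprk1, Dlk1 and genes whose calls were lost were named after their values were seen. The members and lists were chosen with earlier results of these data known. Promoters came from RefSeq on GRCr8. Alternatives were DESeq2 1.42.0, RLE scaling, no filter, a minimum count of 50, a replicate block, joint fits with other groups, each library left out in turn and, chosen after seeing the data, K3 replicates 4 and 5 left out together. Levels of some genes counted in the lists are not reported here.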

Additional observations from a re-analysis of the deposited data

Results flagged for a closer look

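Dixon's test for a library far from the other 4 of its group passed its critical value in 8 of 96 sets of 5 libraries. No chance rate is set beside this count, because most sets were genes named from these same libraries and the sets are not independent. In control, Thrsp was lowest in replicate 2 (0.913 CPM, others 3.16 to 4.01 CPM) and Mkrn3 was lowest in replicate 5 (2.31 CPM, others 3.30 to 3.62 CPM). In K3, replicate 1 was the highest for 4 of the genes that were lower than control, with 9.51 CPM for Fam227a (others 3.74 to 5.34 CPM), 7.93 CPM for Mir770 (others 2.09 to 2.33 CPM), 10.4 CPM for Col2a1 (others 3.10 to 5.17 CPM) and 10.8 CPM for Cxadr (others 2.03 to 4.43 CPM). K3 replicate 5 was the highest for Avp, at 251 CPM (others 98 to 140 CPM), and for Mkrn3, at 2.58 CPM (others 1.33 to 1.6 CPM). These libraries were kept.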

How the results depend on the processing

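The count of 5735 genes called in K3 against control was 5804 with RLE scaling, 5186 without a filter, 5505 at a minimum count of 50, 6908 with DESeq2, 7552 in a fit of all 7 groups and 7765 in a fit of control and the 3 KTZ doses, and ranged from 3409 to 6933 with 1 library left out. Of 431 list genes tested, 200 were called, and 137 to 223 with 1 library left out. K3 against K6 gave 0 genes with edgeR in every leave-one-out fit and 15 with DESeq2, and K3 against K12 gave 0 to 1 (1 without K3 replicate 2) and 17 with DESeq2. The POA count of 285 was 851 with DESeq2 and 42 to 622 with 1 library left out. The cause of these shifts was not tested. For 170 genes (the leading, largest-spread and study-discussed genes and the leading called genes of each list), 3044 of 3047 values under 18 alternatives kept their sign. The others were Rps9 without K3 replicates 4 and 5 (-0.47) and Kiss1 without K3 replicate 5 (-0.08) and without the pair (-0.35), neither of which was called. Kiss1 ranged from -0.08 to 0.39 with 1 library left out. Of the uncalled genes named outside these 170, the sign also turned without the pair for Pomc (-0.19), Hcrt (-0.23), Pmch (-0.04) and Srebf2 (0.14), with 1 library left out for Hcrt (down to -0.11), Srebf2 (up to 0.03), Cyp19a1 (up to 0.06) and Lmx1a (up to 0.11), and under the replicate block for Lmx1a (0.1).

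The replicate numbers of the labels did not pair K3 with control libraries, as the correlations of the deviations from the group means between libraries of one number were 0.145, 0.057, 0.009, 0.118 and -0.010. With a replicate block 5093 genes were called in K3 against control, 4803 of them among the 5735, 0 in K3 against K6, and 89 in the POA. Of genes simulated with a 2-fold change, 59.0% were recovered for K3 against K6, 63.5% for K3 against K12 and 86.0% for the POA. These simulations were built in the same way, so their rates are not error rates of the data either.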
